A study of Mus musculus with 8 samples.

Results

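Genes for neuronal voltage-gated ion channels were examined for chromatin accessibility. They were 30 listed genes out of 21900 protein-coding genes of the annotation, namely 14 voltage-gated potassium (Kv) genes, 5 sodium (Nav) genes, 3 HCN genes and 8 calcium (Cav) genes. A gene's window was the gene with 10 kb on either side, and every peak that shared at least 1 bp with the window was taken as belonging to it. The rule uses channel family and no peak value, and all 30 genes had a peak in every sample.

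Retinal ganglion cells (RGCs), the neurons whose axons form the optic nerve, were profiled with ATAC-seq, where a transposase inserts into accessible DNA. All mice were C57BL/6J (adults of both sexes, per the study's methods), and the labels name no genetic modification. They received an AAV2 vector in the vitreous that encoded GFP (control, 3 samples), Ezh2 (3 samples) or Ezh2-Y726D, an Ezh2 without methyltransferase activity (2 samples), and all optic nerves were crushed 2 weeks later. CD90.2-positive live cells were sorted 3 days after the crush, with 50000 cells per library. Transduction by AAV2 is not limited to RGCs, T cells carry CD90.2 too, no uninjured group was analysed here, and the number of mice per library is not given in the sources used here.

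Channels of these families set how a neuron fires. Nav channels carry the upstroke of the action potential, Kv channels repolarise the membrane, HCN channels pass a depolarising current on hyperpolarisation, and Cav channels admit the calcium that triggers transmitter release and signals to the nucleus. RGCs are spiking neurons and depend on all of them. Ezh2 is the catalytic subunit of Polycomb repressive complex 2, which places the repressive mark H3K27me3.

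The lists held from 112939 to 135895 peaks, and sequencing depth is unknown because they hold no read numbers. RGC markers were present in every group, with a peak within 1 kb of a gene end for 18 to 19 of 20 genes in each library. Genes of other cells also had peaks there, and for leukocytes they differed between the groups. Of 20 microglia and macrophage markers, 12 to 17 had such a peak in the GFP libraries, 16 to 17 in the Ezh2 libraries and 5 and 6 in the Ezh2-Y726D libraries. Of 20 T cell markers, the numbers were 18 to 20, 20 in each, and 10 and 9. Defining leukocyte genes such as Cd3g, Cd8a and Cx3cr1 had a peak in all GFP and Ezh2 libraries and in neither Ezh2-Y726D library. Other retinal markers differed less, with 15 to 18 of 20 rod genes, 17 to 18 Müller glia genes, 17 to 19 amacrine genes and 18 to 20 bipolar genes per library. The part of these cells in any channel result was not tested, and fewer cells of a type cannot be told apart from less open chromatin per cell. The window of the Ezh2 gene itself held 4, 5 and 6 peaks in GFP, 9, 10 and 9 with Ezh2, and 4 and 4 with Ezh2-Y726D, and peaks do not measure its expression.

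Start sites of channel genes were open throughout. RefSeq promoters of GRCm38.p6, from 250 bases before to 50 bases after a start, were matched to 22 of the 30 genes (30 starts). Each of the 22 genes had at least 1 start under a peak present in all 8 lists, and 26 of the 30 starts (86.7%) were covered in this way, against 48.0% of 32851 promoters of all genes. The set of all promoters covered 27025 genes and was not limited to protein-coding genes, which the channel genes are. The 26 channel starts fell in 23 regions. The promoters that were not covered were further starts of Cacna1c, Cacna1d, Kcnq5 and Scn8a. Channel starts were open but not strongly so. The median within-list percentile of fold, the deposited enrichment of a peak summit over its surroundings, was 53.5 over the 23 regions and 86.0 over the 11970 regions of all promoters with a peak in all 8 lists.

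**Figure D1:**
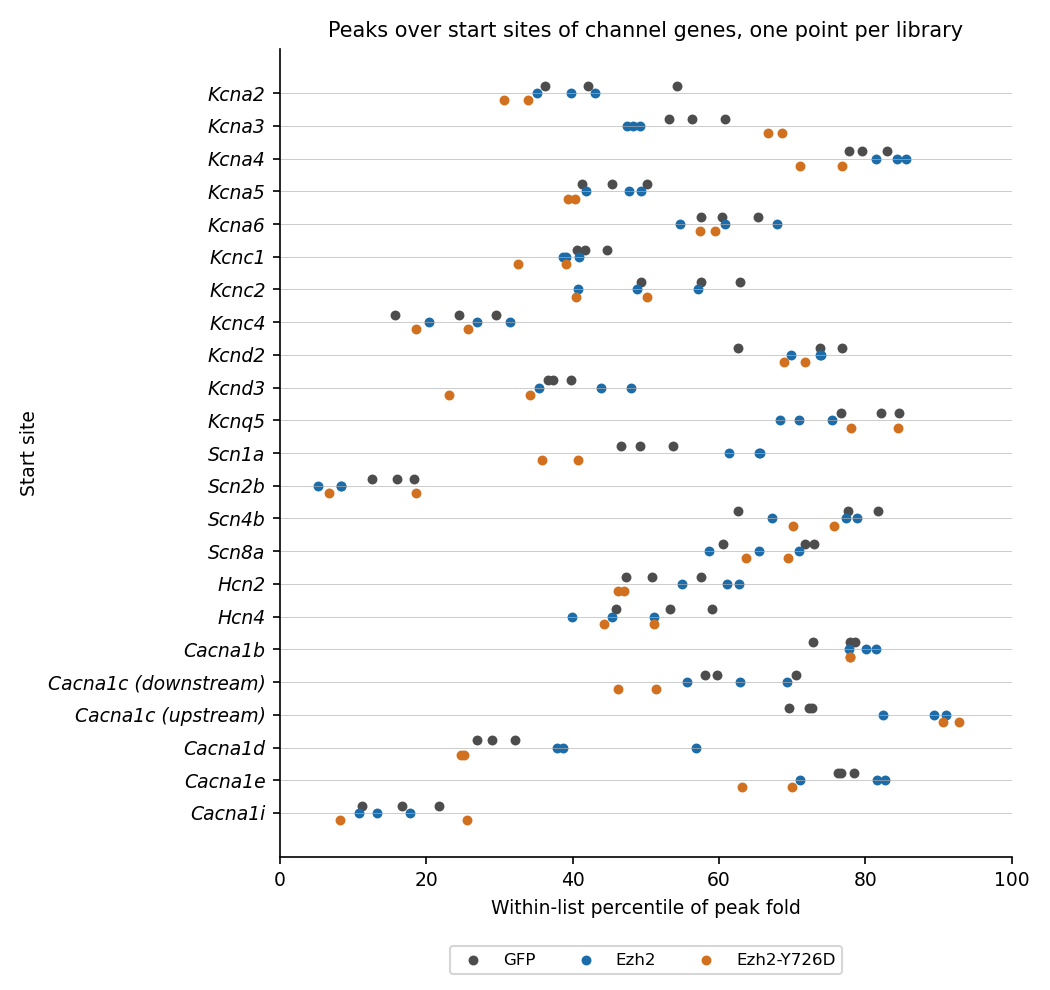
Within-list percentile of peak fold (x axis, 0 to 100) over the start sites of 22 channel genes (y axis, in the order Kv, Nav, HCN, Cav), with 1 point per library coloured by group. Scn1a shows the 3 Ezh2 points (61.4 to 65.6) above the 3 GFP points (46.5 to 53.7) and those above the 2 Ezh2-Y726D points (35.8 and 40.7).

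The promoters of 4 genes are shown, namely those with the largest rise (Kcnd2, Scn1a) and the largest fall (Kcna3, Scn4b) in gene-level rank between Ezh2 and Ezh2-Y726D among genes with a peak over the start. The differences of Scn1a (0.46, limma adjusted p = 0.114) and Scn4b (-0.17, limma adjusted p = 0.396) were not called. They are given 5′ to 3′ on the strand of the gene, and capitals mark GC boxes (GGGCGG on either strand).
Kcnd2: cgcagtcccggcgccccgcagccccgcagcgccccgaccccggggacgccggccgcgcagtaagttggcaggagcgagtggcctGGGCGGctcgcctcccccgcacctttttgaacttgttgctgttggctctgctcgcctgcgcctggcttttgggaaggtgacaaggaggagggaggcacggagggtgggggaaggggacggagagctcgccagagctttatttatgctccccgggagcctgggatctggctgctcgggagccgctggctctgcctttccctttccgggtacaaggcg
Scn1a: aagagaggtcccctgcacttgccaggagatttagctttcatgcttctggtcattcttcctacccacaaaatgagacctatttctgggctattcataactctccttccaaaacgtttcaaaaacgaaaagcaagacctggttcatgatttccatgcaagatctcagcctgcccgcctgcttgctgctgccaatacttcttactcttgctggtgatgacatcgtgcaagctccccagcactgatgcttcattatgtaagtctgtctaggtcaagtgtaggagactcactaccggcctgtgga
Kcna3: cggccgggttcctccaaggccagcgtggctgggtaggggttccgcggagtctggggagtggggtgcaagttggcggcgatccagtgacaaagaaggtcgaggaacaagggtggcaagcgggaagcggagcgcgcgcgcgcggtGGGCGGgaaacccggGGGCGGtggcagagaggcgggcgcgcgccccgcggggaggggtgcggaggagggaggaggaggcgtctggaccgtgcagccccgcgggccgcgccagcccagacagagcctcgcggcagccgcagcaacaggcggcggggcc
Scn4b: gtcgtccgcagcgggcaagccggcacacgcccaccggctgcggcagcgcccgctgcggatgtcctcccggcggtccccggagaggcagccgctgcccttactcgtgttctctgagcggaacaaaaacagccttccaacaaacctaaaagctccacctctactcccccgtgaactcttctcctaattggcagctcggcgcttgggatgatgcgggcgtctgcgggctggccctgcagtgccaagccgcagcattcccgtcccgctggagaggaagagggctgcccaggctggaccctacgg
They lie at chr6:21215096-21215395 (plus strand, Kcnd2), chr2:66440788-66441087 (minus strand, Scn1a), chr3:107035912-107036211 (plus strand, Kcna3) and chr9:45138374-45138673 (plus strand, Scn4b), in build GRCm38. The Kcna3 promoter held 37 CpG dinucleotides and 2 GC boxes, that of Kcnd2 26 and 1, that of Scn4b 26 and none, and that of Scn1a 5 and none. Across the 30 channel starts the median was 18.5 CpG, against 7 over all promoters. Both strands were searched for the AP-1 motif (TGANTCA), the cAMP response element (TGACGTCA), both parts of the REST element (TTCAGCACC and GGACAGC) and the GC box. A GC box occurred in 12 of 30 channel starts (40%), against 35.7% of all promoters. The second REST part (GGACAGC) occurred in 1 channel start, that of Kcnq5, and in 6.56% of all promoters. The letters of AP-1, of the cAMP element and of the first REST part were in none of these 30 windows and in 7.81%, 1.79% and 0.371% of all promoters.

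Peaks in the 10 kb channel gene windows were more numerous in every library of either Ezh2 form than in those with GFP. The 30 windows together held 375, 356 and 432 peaks in the GFP libraries, 435, 434 and 454 in the Ezh2 libraries and 453 and 484 in the Ezh2-Y726D libraries. In these windows the GFP libraries lay below all others, and the ranges of Ezh2 and Ezh2-Y726D overlapped. The means were 388 ± 39.6 (GFP), 441 ± 11.3 (Ezh2) and 469 ± 21.9 (Ezh2-Y726D; SD, n = 3, 3 and 2). Per 1000 peaks of each list, the windows held 3.24, 3.15 and 3.23 peaks in GFP, 3.44, 3.40 and 3.34 with Ezh2, and 3.63 and 3.76 with Ezh2-Y726D, so that the 3 groups did not overlap. When every list was shortened to the length of the shortest, the totals were 365, 356 and 346, then 377, 373 and 360, then 398 and 404. The difference from GFP fell from 53.3 to 14.3 peaks for Ezh2 and from 80.8 to 45.3 peaks for Ezh2-Y726D, and Ezh2 and GFP then overlapped while both Ezh2-Y726D libraries still lay above the rest. GFP replicate 3 also reached into the Ezh2 range without flank (385 against 381, 377 and 397), with 25 kb (520 against 516, 517 and 537) and at a −log10 q of at least 5 (334 against 331, 332 and 331, with 328 and 368 in Ezh2-Y726D), so the separation of GFP from Ezh2 by totals depends on the window and the threshold.

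More peaks in Ezh2 than in GFP, by the group means, were counted for 25 channel genes and fewer for 2. Over 18690 protein-coding genes with a peak, 49.9% had more and 24.2% fewer. With Ezh2-Y726D set against GFP, 24 channel genes had more and 4 had fewer, whereas 37.5% of all genes had more and 41.2% had fewer. Between Ezh2 and Ezh2-Y726D, 10 channel genes had more in Ezh2 and 18 had fewer, against 50.7% and 31.4% of all genes. Channel genes are long, with windows that sum to 5.82 Mb and a mean of 11.9 to 16.2 peaks per gene and library against 5.29 to 6.24 for all genes. Both comparisons with GFP share the same GFP samples.

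**Figure D2:**
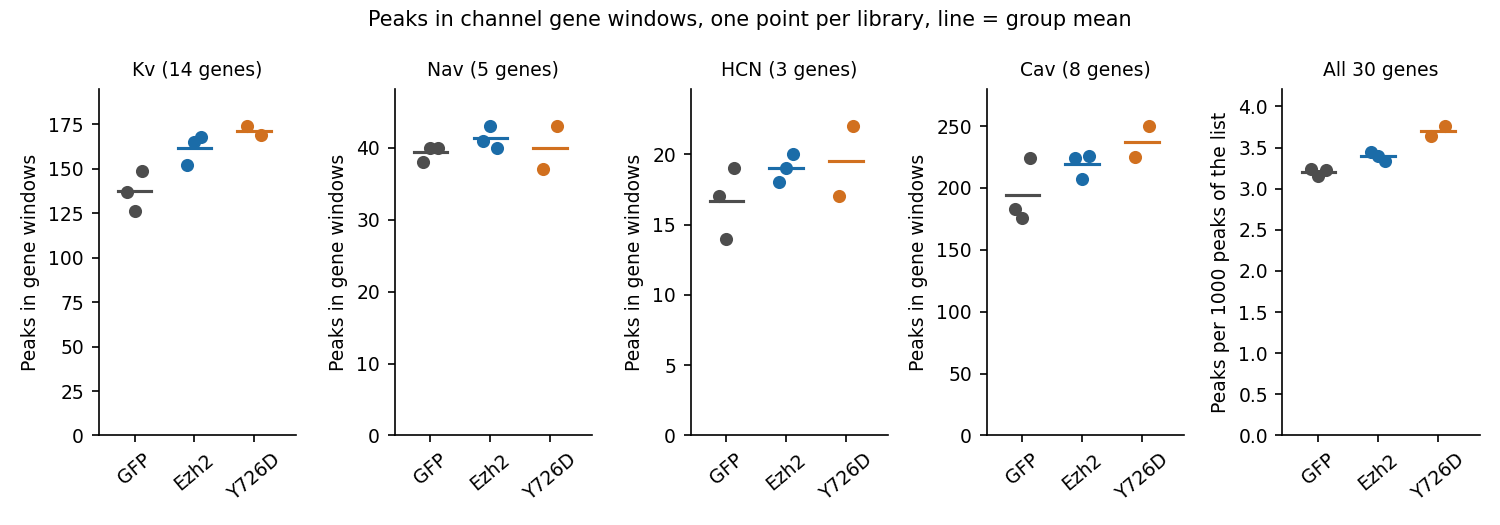
Peaks in the gene windows of each channel class (first 4 panels, y axis in peaks) and of all 30 genes per 1000 peaks of the list (last panel), by group, with 1 point per library and the group mean as a line. The Kv panel shows all GFP libraries (126 to 149) below all Ezh2 libraries (152 to 168) and those below both Ezh2-Y726D libraries (169 and 174).

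In the 10 kb windows, Kv genes held 137, 126 and 149 peaks in GFP, 152, 165 and 168 with Ezh2, and 174 and 169 with Ezh2-Y726D, with no overlap between the groups. With lists of equal length the groups overlapped (132, 126 and 120, then 132, 141 and 141, then 152 and 138). GFP replicate 3 lay above Ezh2 replicate 1 without flank (131 against 126) and with 25 kb (189 against 187), while both Ezh2-Y726D libraries lay above all others in both settings (150 and 146, and 212 and 206). At a −log10 q of at least 5 GFP again lay lowest (103, 95 and 116) and Ezh2 (118, 126 and 133) enclosed Ezh2-Y726D (127 and 127). Cav genes held 183, 176 and 224 peaks in GFP, 224, 207 and 226 with Ezh2, and 225 and 250 with Ezh2-Y726D, so that GFP overlapped Ezh2. Nav genes held 38, 40 and 40 peaks in GFP, 41, 43 and 40 with Ezh2, and 37 and 43 with Ezh2-Y726D. HCN genes held 17, 14 and 19, then 18, 19 and 20, then 17 and 22. Nav and HCN groups overlapped in every comparison.

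Gene by gene, log2(peaks + 1) was tested with limma over all 18690 genes. For Ezh2 against GFP, 1 channel gene was called higher and 0 lower, against 2.14% and 0.952% of all genes. In Ezh2-Y726D against GFP, 2 were higher and 0 lower (all genes: 1.54% and 4.44%), and in Ezh2 against Ezh2-Y726D 0 were higher and 1 lower (all genes: 8.9% and 1.99%). An unadjusted p under 0.05 was reached by 2, 9 and 5 of the 30 channel genes in the 3 comparisons, in that order, against 13.3%, 17.9% and 24.5% of all genes.

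The gene called in both comparisons with GFP was Kcnc4, a fast-activating A-type Kv channel (chromosome 3, 107438298 to 107460287). Its window had 6, 6 and 5 peaks in GFP, 9, 8 and 8 with Ezh2, and 10 and 10 with Ezh2-Y726D. All Ezh2 and Ezh2-Y726D libraries lay above all GFP libraries. The difference was 0.73 ± 0.086 (SE) on the log2 scale for Ezh2-Y726D (limma adjusted p = 0.00720) and 0.49 ± 0.077 for Ezh2 (adjusted p = 0.0360). The Ezh2 call was lost when any library but GFP replicate 3 was left out, with adjusted p from 0.0729 to 0.0869, and with lists of equal length (0.38, adjusted p = 0.120), where Kcna1 and Kcna3 were called instead. At a −log10 q of at least 5 the Ezh2-Y726D difference was -0.094 (adjusted p = 0.952), and with lists of equal length it was 0.35 (adjusted p = 0.113). No Kcnc4 region met the rule for a gain in Ezh2. At its start site, the folds were 3.86, 3.88 and 3.32 in GFP, 4.11, 3.70 and 3.36 with Ezh2, and 3.90 and 3.58 with Ezh2-Y726D, which overlapped.

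Scn2b, which encodes the β2 subunit of Nav channels (chromosome 9, 45117876 to 45130070), had 5 peaks in each GFP and Ezh2 library and 6 in each Ezh2-Y726D library. limma called this difference of 1 peak (adjusted p = 1.4e-06 against GFP and 1.1e-06 for Ezh2 against Ezh2-Y726D). These p-values rest on a spread of 0 within each group, as in 2944 of the 18690 genes, which made up 477 of the 1117 calls in Ezh2-Y726D against GFP. No region was gained. With 25 kb around the gene, adjusted p was 0.137 and 0.241. Its neighbour Scn4b, for the β4 subunit, had 3 peaks in each library, and the pair shared 2 regions.

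**Figure D3:**
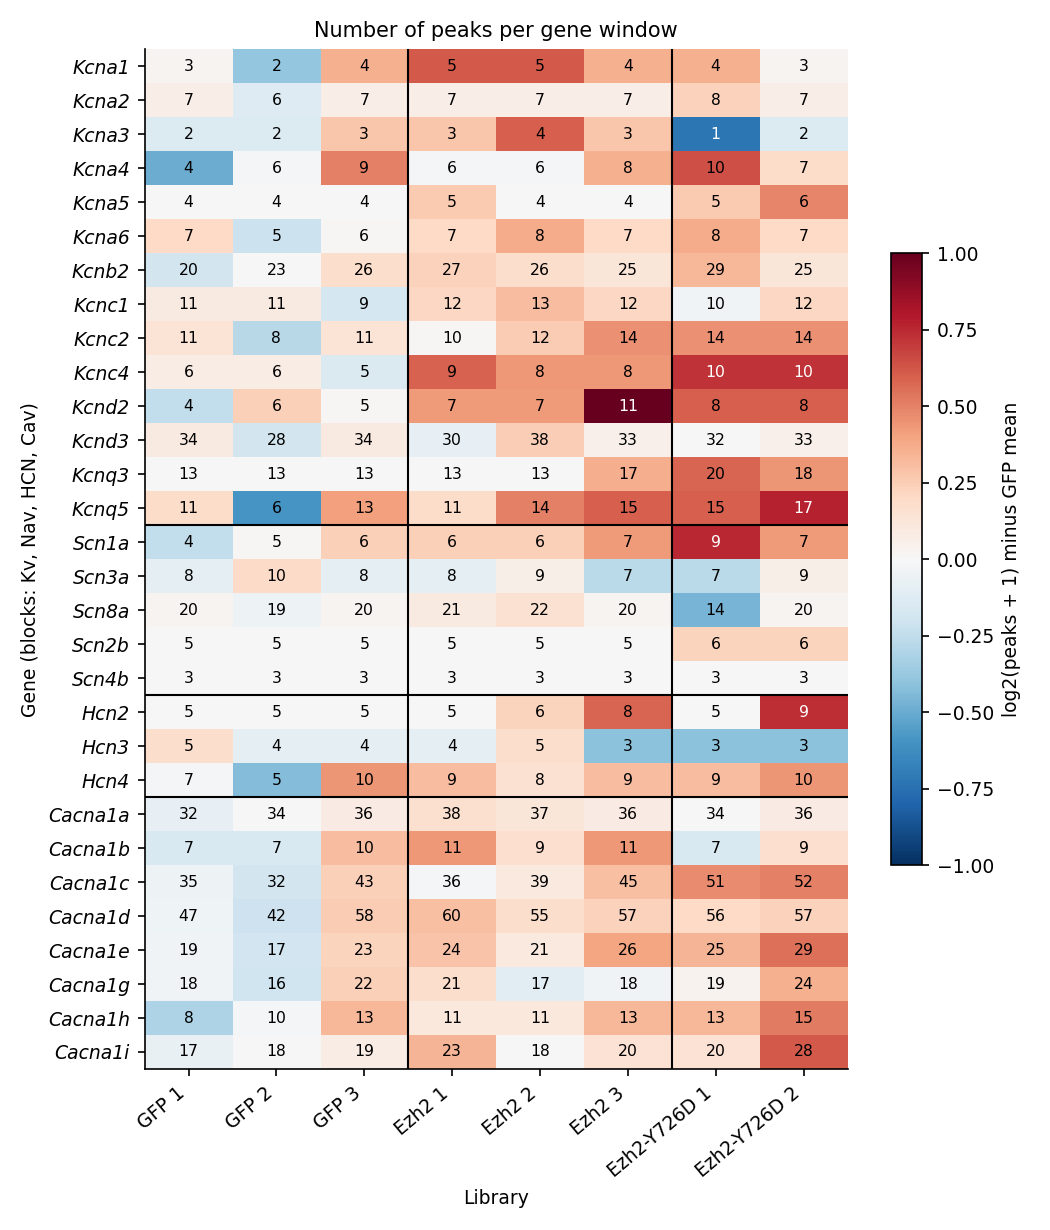
Number of peaks (printed in each cell) in the windows of the 30 channel genes (rows, blocks Kv, Nav, HCN, Cav) in the 8 libraries (columns), coloured by log2(peaks + 1) minus the mean of the GFP libraries. Kcnc4 rises from 5 to 6 peaks in GFP to 10 in both Ezh2-Y726D libraries, while Scn4b has 3 throughout.

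Presence and absence of peaks was compared next over the 664 merged regions in the channel windows, and 240 of them (36.1%) were present in every list, against 36.6% of 189914 regions. A gain meant a peak in every sample of the first group and in no sample of the second, and a loss the reverse, which is met more easily with 2 Ezh2-Y726D samples than with 3. In Ezh2 against GFP, 11 channel regions were gained (1.66%) and 8 lost (1.20%), against 2.72% and 1.68% of all regions. For Ezh2-Y726D against GFP, 43 were gained (6.48%) and 11 lost (1.66%), against 4.77% and 4.72%. In Ezh2 against Ezh2-Y726D, 29 were gained (4.37%) and 49 lost (7.38%), against 8.96% and 6.14%. In Ezh2-Y726D against GFP, channel regions thus had more gains than losses where all regions had about equal shares. RGC marker windows also had more gains (14 of 172 regions, 8.14%) than losses (6, 3.49%). Windows of rod markers (1.31% gained, 7.84% lost) and bipolar markers (2.69% and 6.92%) had the reverse. In Ezh2 against Ezh2-Y726D, channel regions had fewer gains than losses where all regions had more. Without GFP replicate 3 the gains were 27 with Ezh2 and 71 with Ezh2-Y726D. Gains with Ezh2 were 23 and 24 without its replicate 1 or 2 (losses 13 without GFP replicate 1), and those with Ezh2-Y726D were 87 and 83 without its replicate 1 or 2 (losses 17 and 20, and 24 without GFP replicate 2). Between the Ezh2 forms gains were 44 without Ezh2 replicate 2, and losses 96 and 87 without Ezh2-Y726D replicate 1 or 2. In the windows of the microglia and macrophage markers 2 regions were gained and 22 lost for Ezh2-Y726D against GFP, and in those of T cell markers 4 and 32, and the part of this in the share over all regions was not tested.

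By class, Kv windows gained 16 (6.64%) and lost 5 (2.07%) of 241 regions in Ezh2-Y726D against GFP. Cav windows gained 22 (6.41%) and lost 4 (1.17%) of 343. HCN windows gained 3 (11.1%) and lost 0 of 27, and Nav windows gained 2 and lost 2 of 53 (3.77% each). The shares over all regions were 4.77% gained and 4.72% lost. Over the 3 comparisons 103 regions were gained or lost, with a median within-list percentile of 27.7, against 29.4 over all 664 channel regions. None of them could cover a matched start site, since all 23 start regions had a peak in all 8 lists. The largest numbers for Ezh2-Y726D against GFP were in Cacna1d (7 gained, 2 lost) and Cacna1c (5 gained, 0 lost), L-type channel genes with the most regions (92 and 70). For Ezh2 against Ezh2-Y726D they were 8 gained and 8 lost in Cacna1d and 0 gained and 8 lost in Cacna1c. Kcnq3, a subunit of the M-current that restrains repetitive firing, gained 3 and lost 0 for Ezh2-Y726D against GFP, with 13, 13 and 13 peaks in GFP, 13, 13 and 17 with Ezh2, and 20 and 18 with Ezh2-Y726D (limma adjusted p = 0.0845 against GFP).

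Of the 103 regions, 9 had a mean within-list percentile above 50. A region inside Cacna1c (chromosome 6, 118765164 to 118765628) had no peak in GFP and a peak in every other library, with folds of 6.59, 5.08 and 6.76 with Ezh2, and 4.13 and 4.61 with Ezh2-Y726D. Inside Scn8a (chromosome 15, 101028569 to 101029558), which encodes a main Nav channel of the axon initial segment, the peak was absent from Ezh2 alone, with folds of 4.66, 7.11 and 5.31 in GFP and 5.63 and 4.97 in Ezh2-Y726D. The same held for a region inside Cacna1a (chromosome 8, 84546197 to 84546676), the P/Q-type channel gene, with folds of 4.24, 4.88 and 3.59 and of 6.76 and 6.94.

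Absence from both Ezh2-Y726D libraries, with a peak in the other 6, was seen in 4 such regions. The region inside Cacna1d (chromosome 14, 30184272 to 30185075) had folds of 4.00, 3.80 and 5.91 in GFP and 9.35, 7.76 and 8.04 in Ezh2, which did not overlap. Inside Scn8a (chromosome 15, 100904949 to 100905546) they were 4.86, 3.80 and 4.64 in GFP and 7.55, 6.44 and 5.99 in Ezh2. In the flank of Scn8a (chromosome 15, 100860845 to 100861679) they were 5.42, 5.97 and 6.75 in GFP and 3.91, 3.92 and 5.67 in Ezh2, which overlapped. The region inside Kcnd3 (chromosome 3, 105648953 to 105649420), the weakest of the 4 and named after its values were seen, had folds of 4.92 to 5.71 in GFP and 3.86 to 5.34 in Ezh2. The Scn8a window held 14 and 20 peaks in Ezh2-Y726D against 19 to 22 in the other libraries.

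A pair of regions met the rule between the Ezh2 forms but in neither comparison with GFP. Inside Kcnq5 (chromosome 1, 21618691 to 21619137), another M-current subunit, folds were 7.57 to 9.16 in Ezh2, 3.77 and 3.38 in GFP replicates 1 and 3, with no peak in GFP replicate 2 or in Ezh2-Y726D. In the flank of Cacna1e (chromosome 1, 154383283 to 154383717), the R-type channel gene, there was no peak in Ezh2 or in GFP replicate 1, with folds of 4.61 and 6.33 in GFP replicates 2 and 3 and 5.61 and 6.55 in Ezh2-Y726D. No fold can be given where a list has no peak.

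Kcna3, a Kv channel of neurons that is also the main Kv channel of T cells and is found in microglia, lost the region over its 3′ part in Ezh2-Y726D. Its window (gene at chromosome 3, 107036162 to 107038129) held 2, 2 and 3 peaks in GFP, 3, 4 and 3 with Ezh2, and 1 and 2 with Ezh2-Y726D. A region named after its values were seen, from 107037429 to 107038962, had folds of 2.60, 1.94 and 2.13 in GFP and 2.85, 3.30 and 2.92 in Ezh2 and no peak in Ezh2-Y726D. The start region went the other way, with folds of 5.13, 5.70 and 4.90 in GFP, 4.82, 4.72 and 4.44 with Ezh2, and 6.37 and 6.39 with Ezh2-Y726D. T cell and microglia markers with a peak moved with that 3′ region (18 to 20 of 20 T cell genes in GFP and Ezh2, 9 and 10 in Ezh2-Y726D), and their part in the result was not tested.

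The strength of regions open in all samples was compared as a rank score, for which each region's fold was ranked within its list and turned into a normal score. Differences are in these units, and limma was fitted over all 69493 regions with a peak in all 8 lists. In Ezh2 against GFP, 3 of the 240 channel regions were called higher and 3 lower (1.25% each), against 1.59% and 2.84% of all regions. In Ezh2-Y726D against GFP, 7 were higher (2.92%) and 9 lower (3.75%), against 3.55% and 4.65%. In Ezh2 against Ezh2-Y726D, 17 were higher (7.08%) and 8 lower (3.33%), against 7% and 6.96%. Channel regions were thus called below or near the share of all regions in each direction.

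The median difference over the 240 regions was -0.020 in Ezh2 against GFP, -0.084 in Ezh2-Y726D against GFP and 0.087 in Ezh2 against Ezh2-Y726D, against 0.010, -0.014 and 0.023 over all regions. Ranked by −log10 p in place of fold, all 3 medians changed sign, to 0.027, 0.077 and -0.028, so no direction can be given for channel regions as a whole. By class, calls in Ezh2 against Ezh2-Y726D were 8 higher (9.41%) and 2 lower (2.35%) of 85 Kv regions. They were 2 (8.33%) and 0 of 24 Nav regions, 1 (10%) and 0 of 10 HCN regions, and 6 and 6 of 121 Cav regions (4.96% each). The shares over all regions were 7% higher and 6.96% lower. Leaving out 1 library cost many calls, since of the 47 channel region calls over the 3 comparisons 8 were kept without Ezh2-Y726D replicate 1, 13 without Ezh2-Y726D replicate 2 and from 28 to 35 without another library. None changed direction.

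**Figure D4:**
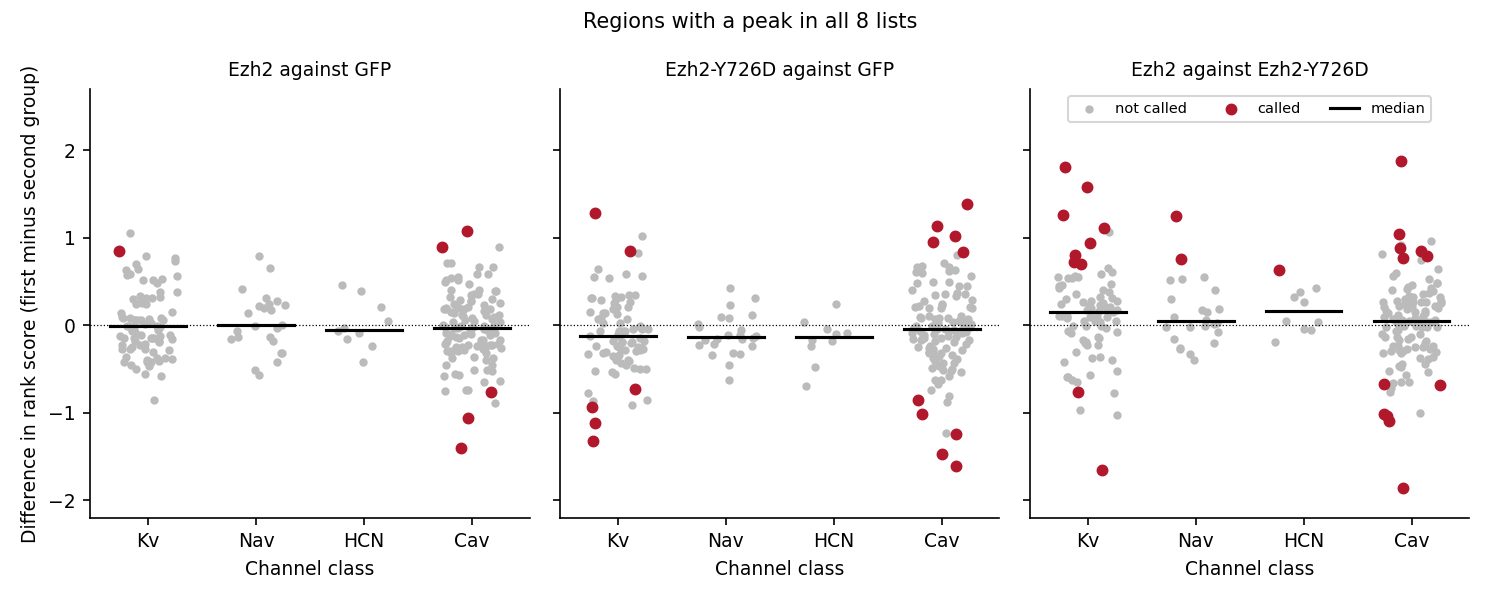
Difference in rank score (y axis, normal-score units, first minus second group) for the 240 regions with a peak in all 8 lists, by channel class (x axis) in 3 comparisons, with called regions in red and class medians as black lines. Kv regions have 8 calls above 0 and 2 below in Ezh2 against Ezh2-Y726D (9.41% and 2.35%, against 7% and 6.96% of all regions).

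Cacna1c, which encodes the Cav1.2 L-type channel that couples activity to gene expression, had the strongest calls. Its region at chromosome 6, 118711658 to 118712442, had folds of 4.94, 4.88 and 7.18 in GFP, 3.18, 3.46 and 3.27 with Ezh2, and 7.38 and 7.08 with Ezh2-Y726D. All Ezh2 values lay below all others. The difference was -1.41 ± 0.24 (SE) for Ezh2 against GFP (limma adjusted p = 0.0146) and -1.86 ± 0.26 for Ezh2 against Ezh2-Y726D (adjusted p = 0.00244), and both calls were kept in all alternatives that gave a value.

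The reverse pattern was found in the same gene at 119039652 to 119040554, where folds were 6.83, 6.78 and 8.37 in GFP, 8.53, 7.85 and 8.07 with Ezh2, and 3.54 and 4.61 with Ezh2-Y726D. Both Ezh2-Y726D values lay below all others. The difference was -1.61 ± 0.24 for Ezh2-Y726D against GFP (adjusted p = 0.00589, or 0.0566 without Ezh2-Y726D replicate 1) and 1.88 ± 0.24 for Ezh2 against Ezh2-Y726D (adjusted p = 0.00169). At 118783913 to 118784695, both Ezh2 forms lay above GFP, with folds of 4.24, 4.61 and 5.49 in GFP, 7.08, 7.62 and 7.19 with Ezh2, and 7.45 and 7.97 with Ezh2-Y726D. The differences from GFP were 1.08 ± 0.18 (adjusted p = 0.0146, or 0.0555 without GFP replicate 2) and 1.02 ± 0.20 (adjusted p = 0.0166, or 0.0520, 0.0749 and 0.103 without GFP replicate 2, Ezh2-Y726D replicate 1 or its replicate 2). Regions of 1 gene thus differed from GFP in both directions.

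**Figure D5:**
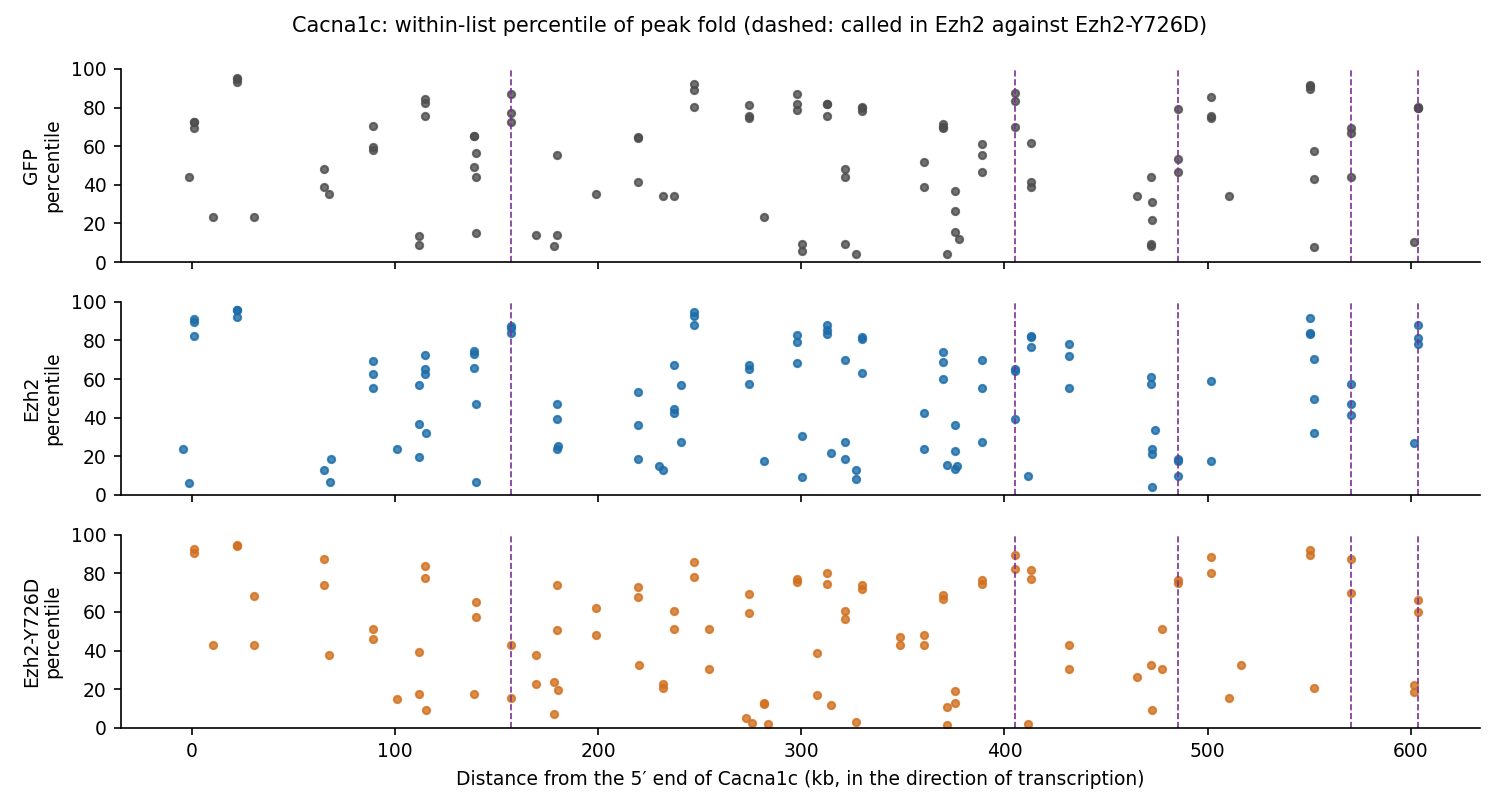
Within-list percentile of fold (y axis, 0 to 100) for peaks along Cacna1c by distance from its 5′ end (x axis, kb), 1 panel per group and 1 point per library and region. Dashed lines mark the 5 regions called in Ezh2 against Ezh2-Y726D, and 2 of these were higher with Ezh2 while 3 were lower.

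Other Cav genes gave calls in both directions too. Inside Cacna1d (chromosome 14, 30089257 to 30090007) folds were 3.53, 3.26 and 3.80 in GFP, 3.66, 4.15 and 5.65 with Ezh2, and 6.43 and 6.15 with Ezh2-Y726D, with a difference of 1.39 ± 0.32 for Ezh2-Y726D against GFP (limma adjusted p = 0.0276). This call was lost without any 1 GFP or Ezh2-Y726D library (adjusted p from 0.0535 to 0.143). Cacna1g, a low-threshold T-type channel gene, gave 1 higher and 3 lower calls for Ezh2-Y726D against GFP. A pair of them were neighbours, at chromosome 11, 94419091 to 94419969 (difference -1.24, adjusted p = 0.0305) and 94420326 to 94420894 (1.14, adjusted p = 0.0165), and both lost their call without Ezh2-Y726D replicate 1 (limma adjusted p = 0.130 and 0.118). The first also lost it without GFP replicate 1 or 2 (0.0748 and 0.0756) or Ezh2-Y726D replicate 2 (0.175). They were chosen after their values were seen. The other T-type genes had 1 region higher and 1 lower (Cacna1h) and 0 of either (Cacna1i) in that comparison. Cacna1a and Cacna1b, the P/Q-type and N-type channels of nerve terminals, had 0 region calls in the 3 comparisons, and their windows held 32 to 38 and 7 to 11 peaks.

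Among Kv genes, Kcnb2, a delayed rectifier, had a region (chromosome 1, 15471421 to 15472158) with folds of 3.77, 4.88 and 5.49 in GFP, 4.15, 3.69 and 4.14 with Ezh2, and 8.86 and 7.98 with Ezh2-Y726D. Both Ezh2-Y726D values lay above all others. The difference was 1.29 ± 0.26 (SE) for Ezh2-Y726D against GFP (limma adjusted p = 0.0175, or 0.124 and 0.0683 without its replicate 1 or 2) and -1.66 ± 0.26 for Ezh2 against Ezh2-Y726D (adjusted p = 0.00370).

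A region inside Kcnq3 (chromosome 15, 66136929 to 66137737) went the other way, with folds of 6.36, 8.14 and 6.75 in GFP, 8.59, 9.45 and 7.63 with Ezh2, and 5.61 and 3.40 with Ezh2-Y726D. Its difference was 1.81 ± 0.33 for Ezh2 against Ezh2-Y726D (limma adjusted p = 0.00673), and 1.17 without Ezh2-Y726D replicate 2 (adjusted p = 0.0438). Against GFP the difference of Ezh2-Y726D was -1.33 ± 0.33 (adjusted p = 0.0352), and -0.69 without Ezh2-Y726D replicate 2 (adjusted p = 0.228), with the call also lost without any 1 GFP library (adjusted p from 0.0650 to 0.0958).

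Kcna6, a Shaker-type channel gene, had the only Kv region called in Ezh2 against GFP (chromosome 6, 126712396 to 126713089), with folds of 4.47, 4.07 and 4.85 in GFP, 5.72, 7.01 and 5.81 with Ezh2, and 5.88 and 6.44 with Ezh2-Y726D. The difference was 0.85 ± 0.20 (adjusted p = 0.0416), and no call remained when any 1 library was left out (adjusted p from 0.0590 to 0.142).

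Kcnd2 and Kcnd3, genes of the somatodendritic A-type current, were called higher with Ezh2 than with Ezh2-Y726D, as was Hcn2, and Kcna3 was called lower. These calls came from the mean rank score of a gene's regions, tested over 17237 genes. No channel gene was called against GFP in limma, where 0.557% of all genes were higher and 1.08% lower in Ezh2 and 1.83% higher and 3.72% lower in Ezh2-Y726D, and an unadjusted p under 0.05 was reached by 3 and 4 of 30 channel genes against 17.5% and 22.7% of all genes. In Ezh2 against Ezh2-Y726D, 3 were higher and 1 lower, against 6.12% and 5.11% of all genes, and 7 channel genes reached an unadjusted p under 0.05 against 28.1% of all genes.

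Kcnd2 had mean rank scores of -0.88, -0.33 and -0.53 in GFP, -0.03, -0.10 and -0.30 with Ezh2, and -0.80 and -0.86 with Ezh2-Y726D. The Ezh2 libraries lay above all others, with a difference of 0.69 ± 0.15 (SE) from Ezh2-Y726D (limma adjusted p = 0.0218). At equal list lengths it was 0.034 (adjusted p = 0.939). It rested on 4 regions, of which 1 was called (chromosome 6, 21348333 to 21348885, difference 1.58, adjusted p = 0.00782, or 0.0570 and 0.0595 without Ezh2-Y726D replicate 1 or 2), while its start region had folds of 5.49 to 6.95 in GFP, 6.21 to 6.82 with Ezh2, and 6.52 and 6.76 with Ezh2-Y726D.

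Kcnd3 had scores of 0.06, 0.06 and -0.02 in GFP, 0.08, 0.10 and 0.20 with Ezh2, and -0.22 and -0.20 with Ezh2-Y726D, with a difference of 0.33 ± 0.092 (adjusted p = 0.0491). The call was lost in 14 of 15 alternatives, among them that without any 1 library other than GFP replicate 3 (adjusted p from 0.0602 to 0.251). Of its 16 regions open in all lists, 4 gave a higher call for Ezh2 against Ezh2-Y726D.

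Kcna3 was the gene called lower, with scores of -0.37, -0.20 and -0.65 in GFP, -0.64, -0.66 and -0.76 with Ezh2, and -0.11 and -0.08 with Ezh2-Y726D. Its 1 region open in all lists was the start region, which was not called when tested as a region (-0.59 ± 0.19, limma adjusted p = 0.0619). The gene-level difference of -0.59 ± 0.13 (limma adjusted p = 0.0203) came from that region alone, so the 2 tests differ only in the SE and the adjustment. Ranked by −log10 p it was -0.095 (adjusted p = 0.433), and the calls of Kcna3 and Kcnd2 were lost without either Ezh2-Y726D library (Kcna3 adjusted p = 0.0881 and 0.0887, Kcnd2 0.111 and 0.118). Without 1 Ezh2 library, Kcna3 had adjusted p from 0.0506 to 0.0599, and Kcnd2 had 0.0554 without replicate 1 and 0.0547 without replicate 2.

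Hcn2, a fast-gating HCN channel gene, had scores of 0.77, 0.78 and 0.56 in GFP, 0.67, 0.79 and 0.84 with Ezh2, and 0.37 and 0.31 with Ezh2-Y726D, with a difference of 0.43 ± 0.11 (limma adjusted p = 0.0326). Its 1 called region lies in the flank, overlaps the gene Polrmt and was among the strongest peaks of each list (chromosome 10, 79746080 to 79747159, folds 16.1 to 18.6, difference 0.63 ± 0.17, adjusted p = 0.0382). Without the flank Hcn2 was no longer called (0.33, adjusted p = 0.173), nor with 25 kb (0.19, adjusted p = 0.319), nor without Ezh2 replicate 2 or 3 (adjusted p = 0.0777 and 0.0824) or Ezh2-Y726D replicate 1 or 2 (0.145 and 0.165). The region lost its call without any 1 library other than GFP replicate 3 (adjusted p from 0.0511 to 0.195). Hcn3 had 3 to 5 peaks and Hcn4, the HCN gene of pacemaking cells, had 5 to 10, with 0 region calls.

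Among Nav genes, the start of Scn1a, which encodes the Nav1.1 channel, was the only start site of 23 called in Ezh2 against Ezh2-Y726D. Its region (chromosome 2, 66439690 to 66441317) had folds of 4.57, 5.00 and 4.96 in GFP, 5.95, 5.52 and 5.52 with Ezh2, and 4.63 and 4.30 with Ezh2-Y726D. All Ezh2 values lay above all others. The difference was 0.75 (limma adjusted p = 0.0172, or 0.0759 and 0.130 without Ezh2-Y726D replicate 1 or 2). This region and the following one were named after their values were seen. The upstream start of Cacna1c, which is also inside Dcp1b, was the only start called for Ezh2-Y726D against GFP (folds 6.36, 6.78 and 6.12 in GFP, 7.82, 8.94 and 8.92 with Ezh2, and 10.6 and 9.70 with Ezh2-Y726D, difference 0.95, adjusted p = 0.0200), and that call was lost without either Ezh2-Y726D library (adjusted p = 0.135 and 0.0712) or GFP replicate 3 (0.0509). No start site was called in Ezh2 against GFP.

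The other called Nav region lay inside Scn8a (chromosome 15, 100990291 to 100991273), with folds of 4.94, 4.07 and 5.07 in GFP, 5.62, 6.92 and 6.54 with Ezh2, and 3.84 and 4.37 with Ezh2-Y726D, and a difference of 1.25 ± 0.25 in Ezh2 against Ezh2-Y726D (limma adjusted p = 0.0108, or 0.109 without Ezh2-Y726D replicate 1). Scn3a, for the Nav1.3 channel of immature neurons, had 7 to 10 peaks and 0 region calls.

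The remaining channel genes passed no gene-level test. Among them, Kcna1 and Kcna2, whose channels sit beside the nodes of Ranvier, had 2 to 5 and 6 to 8 peaks, Kcna4 had 4 to 10 and Kcna5 4 to 6. Kcnc1 and Kcnc2, fast delayed rectifiers of rapidly firing neurons, had 9 to 13 and 8 to 14 peaks. Kcnq5 had 6 to 17, Cacna1e 17 to 29, Cacna1h 8 to 15 and Cacna1i 17 to 28. The most peaks were in Cacna1d (42 to 60 per library) and the fewest in Kcna3 and Scn4b. Regions per 100 kb of window ranged from 2.81 in Kcnd2 to 30.4 in Kcna5.

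Genes that work with these channels were counted in the same way. Of 22 regions open in all lists at 9 genes for silent Kv subunits, which modify Kv tetramers without forming channels alone, 5 gave a higher and 0 a lower call for Ezh2 against Ezh2-Y726D (7% and 6.96% of all regions). Of 140 regions at 9 genes for Kv auxiliary subunits, 6 were higher and 5 lower, of 110 at 8 genes for Cav auxiliary subunits 10 were higher and 5 lower, and of 123 at 9 genes for axon initial segment proteins 7 were higher and 5 lower. For Ezh2-Y726D against GFP, these lists, in the same order, gained 2 of 46 (4.35%), 28 of 392 (7.14%), 15 of 300 (5%) and 31 of 382 regions (8.12%), against 4.77% of all regions. They lost 2 (4.35%), 9 (2.30%), 10 (3.33%) and 4 (1.05%), against 4.72%.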

How the data were processed

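ATAC-seq peak lists of 8 samples were used, 1 per sample. Per the labels, cutadapt, Bowtie2, SAMtools, Picard, MACS2 and deepTools were used with the GRCm38 build, and their versions and thresholds are not given in the sources used here. Each list comes from 1 sample, so peaks were not called on pooled samples. The deposited fold of a peak is a ratio of summit pileup to local background. The deposited −log10 p-value is the peak caller's within a library, as is its −log10 q-value (lowest −log10 q 1.31 to 1.38). The deposited score was not used. Positions are 1-based.

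Peaks of the 8 lists with 1 bp or more in common formed a region, which took its strongest peak in each list. Gene positions and promoters came from RefSeq (GRCm38.p6). The gene table has no strand or exons, so marker genes were scored within 1 kb of either end. Regions, log2(peaks + 1) and mean rank per gene were fitted in limma (all 8 samples, no block, Benjamini-Hochberg adjustment over all features, threshold 0.05) after tests on simulated data. R, limma and Python versions were 4.3.3, 3.58.1 and 3.11.15. Samples were grouped by title, and p-values measure the spread between these samples, which may be technical. No 2 lists were copies of each other.

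Named with values were channel genes called by peak number or mean rank (up to 8), the called region with the largest rise and fall per class and comparison, gained or lost regions above percentile 50 (up to 3 per comparison and direction) and the extremes of peak number. The genes, lists and tests were chosen with earlier results of these data known.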

Additional observations from a re-analysis of the deposited data

How the results depend on the processing

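Alternatives were windows without flank or of 25 kb, a −log10 q of at least 5, lists of equal length, a peak cover of at least 0.5 of a region (gains and losses), ranks by −log10 p, regions in at least 5 lists, a replicate block and leaving out each library, where a lone Ezh2-Y726D library is assumed to vary like the other groups. Of 24 summary results, 3 stayed within 1.5 times or 1 SD throughout. They were the 0 genes called by mean rank and the median rank difference in Ezh2 against GFP, and the peak difference between the Ezh2 forms. That median still changed sign (-0.048 to 0.027), and that peak difference ran from -43 to -12. Of 55 single calls 5 were kept in all alternatives that gave a value. The cause was not tested unless fewer samples or peaks entered. With few calls, counts moved easily.

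In Ezh2 against GFP, 3 higher regions became 5 with 25 kb and 5 with ranks by −log10 p, and 3 lower ones became 0 at −log10 q of at least 5 and 1 with equal lengths. Genes called by peak number went from 1 to 0 without flank, with 25 kb and at −log10 q of at least 5, and to 2 with equal lengths, where Kcnc4 was lost and Kcna1 and Kcna3 were called. The peak difference fell to 14.3 with equal lengths. In Ezh2-Y726D against GFP, 7 higher regions became 12 with ranks by −log10 p and 4 with regions in at least 5 lists, gains fell to 23 at −log10 q of at least 5, and losses rose to 17 with 25 kb. Genes called by peak number fell to 1 at −log10 q of at least 5. Kcna3 was called lower with 25 kb (limma adjusted p = 0.0488) and equal lengths (0.0274), where Scn1a was called higher (0.0214). Genes called by mean rank rose from 0 to 2 with ranks by −log10 p (Hcn3 and Kcna6). With regions in at least 5 lists Kcna3 was called higher (1.60, limma adjusted p = 0.00272). Its 3′ region, absent from Ezh2-Y726D, then entered the mean of the other groups only. The peak difference was 50.3 at −log10 q of at least 5 and 45.3 with equal lengths. In Ezh2 against Ezh2-Y726D, at −log10 q of at least 5 higher regions fell to 9, lower ones to 5 and losses to 30. Genes called by peak number rose to 2 with 25 kb (Kcna3 and Scn4b, without Scn2b) and 3 with equal lengths (Scn2b, Kcna3 and Cacna1c), and those called by mean rank fell to 1 with ranks by −log10 p. With ranks by −log10 p the median rank difference was 0.027 in Ezh2 against GFP, 0.077 in Ezh2-Y726D against GFP and -0.028 in Ezh2 against Ezh2-Y726D. The Kcnc4 difference in peak number for Ezh2-Y726D against GFP was -0.094 at −log10 q of at least 5.

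Leaving out 1 library gave ranges, in Ezh2 against GFP, of 0 to 3 higher and 1 to 2 lower regions, 11 to 27 gains, 8 to 13 losses, 0 to 1 genes by peak number and 37.5 to 75.5 more peaks. In Ezh2-Y726D against GFP they were 0 to 8, 1 to 9, 43 to 87, 11 to 24, 2 to 3 and 65.0 to 103. In Ezh2 against Ezh2-Y726D they were 4 to 20, 2 to 8, 29 to 44, 49 to 96, 1 to 2 genes by peak number and 0 to 4 genes by mean rank. The lowest counts of called regions in the last 2 comparisons came without Ezh2-Y726D replicate 1.

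Deviations of samples with the same title number were at most weakly correlated (r from -0.0151 to 0.0478 over 7 pairs). Pairs with different title numbers had r from -0.0482 to 0.0461. By the numbers in the peak names, same-numbered pairs had r from 0.00180 to 0.0478. What the number stands for cannot be told from values this small. With the replicate block by title, higher regions in Ezh2 against GFP fell from 3 to 1, genes called by peak number from 1 to 0, and genes called by mean rank in Ezh2 against Ezh2-Y726D from 4 to 2. A block by the numbers in the peak names, chosen after seeing the data, gave 1, 0 and 2, with 2 higher regions in Ezh2-Y726D against GFP and 11 higher and 5 lower in Ezh2 against Ezh2-Y726D. Depth is unknown, so a missing peak may be one below the caller's threshold.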
